A study of Mus musculus with 69 samples.

Results

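The enzymes that make glucose and those that break it down were examined in the kidney as 10 gene symbols of the count files, listed by name: Pck1, G6pc, Fbp1 and Pcx for gluconeogenesis, and Hk1, Hk2, Pfkp, Pkm, Ldha and Pfkfb3 for glycolysis. The rule asked only that a listed symbol be present in the files, and all 10 members were found among 24523 symbols. The samples were perfused whole kidneys of female NZB/W F1 mice, a cross that develops lupus nephritis with age, and all groups carry that genotype. There were 30 young mice of 12 weeks, 27 nephritic mice of 30 to 45 weeks, harvested 2 to 3 weeks after proteinuria passed 300 mg/dl with blood urea nitrogen under 25 mg/dl, and 8 remission mice of 36 to 50 weeks. The remission mice had received cyclophosphamide with CTLA4Ig and anti-CD40L after proteinuria began, held proteinuria at or under 30 mg/dl, and were harvested 8 weeks after treatment. Young and nephritic mice were sampled at 6 zeitgeber times (ZT, hours after lights on in a day with 12 h of light), with 3 to 7 mice in each, and remission mice at ZT0 and ZT12, 4 mice at each. No untreated NZB/W mice of the nephritic age without nephritis were analysed here, so age and disease cannot be told apart in any comparison with young mice.

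Gluconeogenesis builds glucose from lactate, glutamine and glycerol, and in the body only liver, kidney and intestine do so to a large extent. In the kidney it belongs to the proximal tubule, which burns fatty acids and hardly uses glucose as fuel, whereas glycolysis serves mainly the distal nephron, the medulla, vessels and blood cells. Pyruvate carboxylase (Pcx) and phosphoenolpyruvate carboxykinase (Pck1) carry carbon around the irreversible last step of glycolysis, fructose bisphosphatase (Fbp1) reverses the phosphofructokinase step, and glucose-6-phosphatase (G6pc) releases free glucose. Hexokinases (Hk1, Hk2) commit glucose to the cell, phosphofructokinase (Pfkp) sets the pace of the pathway, Pfkfb3 makes its activator fructose 2,6-bisphosphate, pyruvate kinase (Pkm) ends it and lactate dehydrogenase (Ldha) turns pyruvate into lactate.

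The sequences before the start sites are shown for 3 members whose levels varied with time of day in young kidneys, because sites for clock, cyclic AMP and hypoxia factors are read there. Each is the 250 bases before a RefSeq start (GRCm38.p6, the build of the files), 5′ to 3′ on the gene's strand, with capitals marking any match, on either strand, to an E-box (CACGTG), the hypoxia core (ACGTG, which every E-box contains, so that each E-box also counts as a hypoxia core), the cyclic AMP core (TGACG), its full site (TGACGTCA), a D-box (TTATGTAA) or a glucocorticoid core (AGAACA).
Pck1, chr2:173152823-173153072, plus strand: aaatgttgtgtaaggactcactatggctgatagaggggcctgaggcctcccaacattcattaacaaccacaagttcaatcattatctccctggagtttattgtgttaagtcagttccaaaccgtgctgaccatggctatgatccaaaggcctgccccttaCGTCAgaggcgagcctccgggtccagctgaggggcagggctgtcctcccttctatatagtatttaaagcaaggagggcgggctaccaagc
Hk2, chr6:82774455-82774704, minus strand: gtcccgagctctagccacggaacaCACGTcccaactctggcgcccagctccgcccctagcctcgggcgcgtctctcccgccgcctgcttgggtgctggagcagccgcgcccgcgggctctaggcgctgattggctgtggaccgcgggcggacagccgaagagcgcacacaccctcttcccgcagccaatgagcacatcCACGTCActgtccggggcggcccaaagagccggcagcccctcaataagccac
Ldha, chr7:46845554-46845803, plus strand, the first of its 2 starts: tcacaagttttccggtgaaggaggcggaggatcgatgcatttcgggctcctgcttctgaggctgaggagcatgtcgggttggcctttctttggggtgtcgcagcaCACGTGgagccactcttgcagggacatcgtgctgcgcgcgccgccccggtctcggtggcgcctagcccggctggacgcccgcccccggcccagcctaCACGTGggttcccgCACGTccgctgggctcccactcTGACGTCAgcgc
The Pck1 window held 1 match, a cyclic AMP core on the opposite strand whose first base lay at position -90 from the start. The Ldha window held E-boxes at -145 and -48, a full cyclic AMP site at -12 and a further hypoxia core at -34. The Hk2 window held hypoxia cores at -226 and -52 and, overlapping the latter, a cyclic AMP core at -50, all on the opposite strand. Over all starts of the 10 members, 3 members had an E-box (Pcx, Ldha and Pfkfb3), 5 a hypoxia core, 4 a cyclic AMP core and none a D-box, and the windows of G6pc, Fbp1 and Pfkp held no match. Of 27025 RefSeq symbols, counted in the same way over all their starts, 6.86% had an E-box, 18.5% a hypoxia core, 19.8% a cyclic AMP core, 1.77% the full site, 18.2% a glucocorticoid core and 0.977% a D-box. These matches describe the letters only.

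The kidney libraries held 13311278 to 48075977 counts, with medians of 30300721 in young, 33047149 in nephritic and 19725220 in remission mice, and every proximal and distal tubule marker listed had counts in every library. Levels are given as CPM, counts scaled to the library total after TMM normalization. In 8 young and 3 nephritic libraries the summed level of 4 adrenal cortex markers exceeded 100 CPM or that of 6 adipocyte markers 300 CPM. The clock gene Arntl went against the time label in 2 libraries: remission mouse s9 at ZT12 had 27.01 CPM against at most 4.89 in the other remission mice of that time, and nephritic mouse RX10RU at ZT8 had 17.97 CPM against at most 3.70. Of 4 mice sequenced again, the repeat of nephritic mouse RX11RU correlated more closely with another nephritic mouse, RX11LU (Pearson r 0.993 across genes), than with its own original (0.972).

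In young kidneys the gluconeogenic transcripts were far more abundant than most glycolytic ones when levels were divided by exon length. Pck1 stood first at 1362 ± 412 CPM per kb (SD, n = 30), followed by Fbp1 at 768 ± 58.5, G6pc at 366 ± 84.7, Ldha at 159 ± 18.8, Pcx at 137 ± 15.9, Pkm at 84.8 ± 8.13 and Hk1 at 23.3 ± 2.29. Pfkp at 6.11 ± 0.982, Pfkfb3 at 4.17 ± 1.05 and Hk2 at 0.762 ± 0.494 CPM per kb closed the order. The ranges over the young mice overlapped for Ldha and Pcx and for Pfkp and Pfkfb3, so the order within each of these pairs is not firm. Those of Pck1 and Fbp1 overlapped as well, but within each young mouse Pck1 was the higher. All ranks rest on the exon lengths used. The order of the 10 was the same in nephritic kidneys, and in remission kidneys Pkm (114 ± 15.1) and Pcx (93.4 ± 18.3) changed places. Hk2 rests on few reads, 18 to 757 counts per library over all groups, while no other member had under 355 counts in any library.

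**Figure D1:**
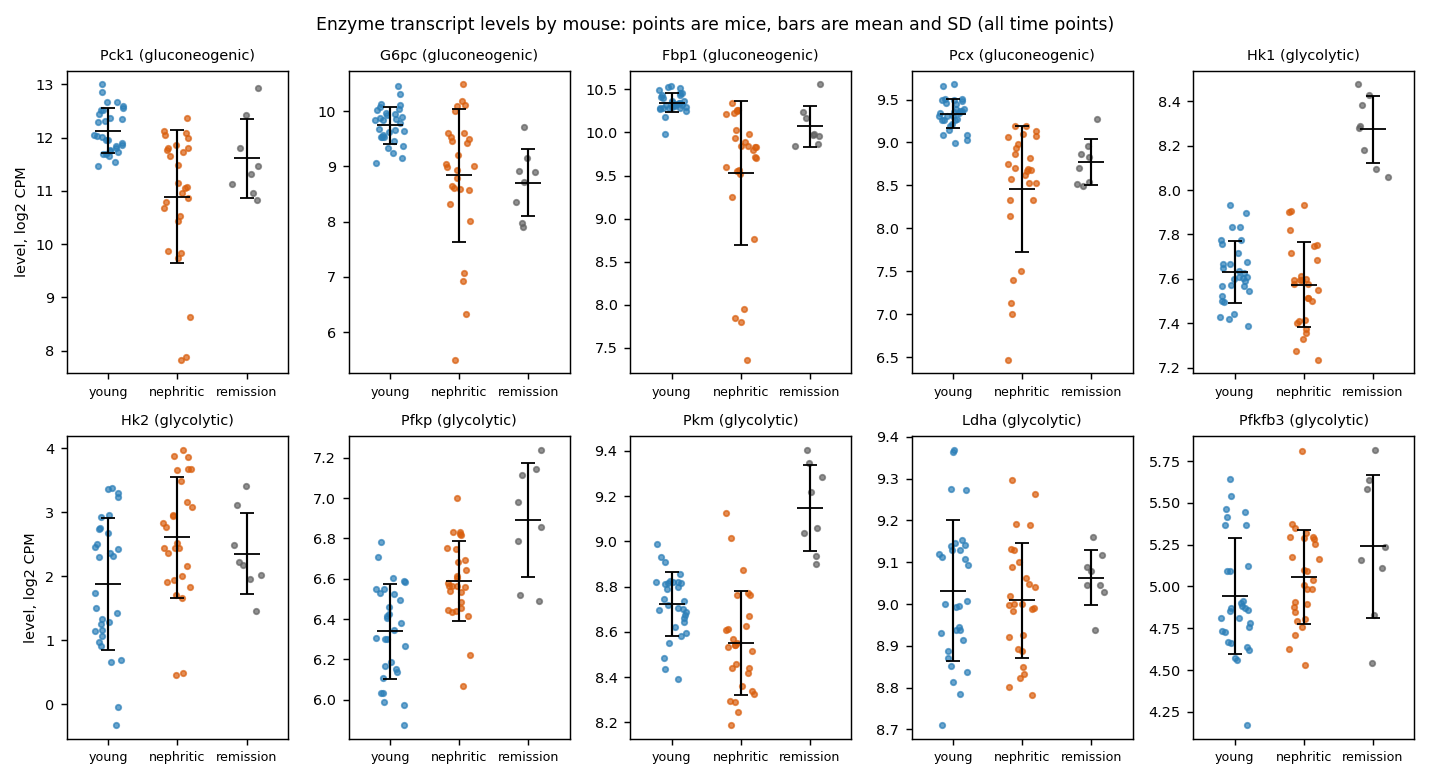
Level of each enzyme transcript (log2 CPM, vertical axis) in every mouse, by group (horizontal axis). Points are mice, black bars the mean and SD. The nephritic mice reach far below the young range for Pck1, G6pc, Fbp1 and Pcx, and all 8 remission mice lie above all others for Hk1. The remission libraries were taken as a later batch, and Hk1 also read higher in the repeat libraries of that batch.

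The first comparison asked whether nephritic kidneys differ from young ones in these enzymes. All 4 gluconeogenic transcripts were lower in nephritic kidneys, Pck1 by 1.98-fold, Pcx by 1.72-fold, Fbp1 by 1.65-fold and G6pc by 1.60-fold, while the glycolytic ones went both ways: Hk2 was 1.70-fold and Pfkp 1.18-fold higher, Pkm 1.13-fold lower, and Hk1, Ldha and Pfkfb3 did not pass the test. Thus 7 of 10 members passed (4 of 4 gluconeogenic, 3 of 6 glycolytic), against 62.1% of the 17521 genes tested, of which 33.9% were lower and 28.1% higher in nephritic mice. The test was edgeR's quasi-likelihood test with time point and RNASeq set as covariates, Benjamini-Hochberg adjustment over all genes and a threshold of 0.05. RNASeq set is the study's name for its 2 groups of sequenced mice. No label gives a mouse's set, so the 6 young and 5 nephritic mice of ZT0 and ZT12 whose names begin with CR or HIL, in numbers equal to the set sizes the study lists, were taken as set 1.

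Pck1, the rate-limiting enzyme of the pathway, ran from 2824 to 8191 CPM (median 4175) in the 30 young mice and from 227 to 5296 CPM (median 2155) in the 27 nephritic mice. In 15 of 27 nephritic mice it lay below every young mouse, and the lowest were 2 set 1 mice of ZT12 at 227 and 236 CPM and RX10LU of ZT0, whose library was rich in adrenal and adipocyte markers, at 396 CPM. The difference was -0.99 ± 0.20 on the log2 scale (SE; edgeR adjusted p = 3.45e-05).
Pcx, which feeds pyruvate into the pathway, ran from 509 to 818 CPM (median 651) in young and from 88.6 to 586 CPM (median 411) in nephritic mice. Here 21 of 27 nephritic mice lay below every young mouse, and the log2 difference was -0.78 ± 0.12 (SE; edgeR adjusted p = 2.34e-07).
Fbp1, which had the lowest ratio of highest to lowest young mouse among the 4, ran from 1014 to 1489 CPM (median 1291) in young and from 164 to 1303 CPM (median 911) in nephritic mice. For this enzyme 19 of 27 nephritic mice lay below all young mice, and the log2 difference was -0.73 ± 0.13 (SE; edgeR adjusted p = 6.08e-06).
G6pc, the last step before free glucose, ran from 532 to 1413 CPM (median 899) in young and from 45.2 to 1435 CPM (median 517) in nephritic mice. The nephritic mice lay on both sides, 15 below and 1 above every young mouse, and the log2 difference was -0.68 ± 0.19 (SE; edgeR adjusted p = 0.00175).
Within young mice the highest level was 2.90 times the lowest for Pck1, 2.65 times for G6pc, 1.61 times for Pcx and 1.47 times for Fbp1. In nephritic mice these spans were 23.3, 31.8, 6.62 and 7.92 times, so the groups differed in spread as well as in level.

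Both RNASeq sets had lower gluconeogenic transcripts in nephritic mice, but by unlike amounts. Within set 2 alone the log2 differences were -0.70 for Pck1 (edgeR adjusted p = 0.000584), -0.62 for Pcx (9.79e-07), -0.50 for Fbp1 (9.53e-05) and -0.39 for G6pc (0.0316). Within set 1 alone they were -2.69, -1.55, -1.80 and -2.31, with adjusted p from 0.00357 to 0.00966. Hk2 followed the same pattern in the other direction, at 0.47 in set 2 (adjusted p = 0.0191) and 2.24 in set 1 (7.50e-05). Pfkp (0.25, adjusted p = 0.0604) and Pkm (-0.05, adjusted p = 0.809) did not pass in set 1 alone.

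Of the glycolytic members, Hk2, the insulin-responsive hexokinase of muscle and fat, showed the largest difference. It ran from 0.733 to 10.3 CPM (median 4.06) in young and from 1.31 to 15.7 CPM (median 5.66) in nephritic mice, and the ranges overlapped widely, with 7 of 27 nephritic mice above every young one. Its log2 difference was 0.77 ± 0.18 (SE; edgeR adjusted p = 0.000259).
Pfkp, the platelet form of phosphofructokinase, ran from 58.6 to 110 CPM (median 82.3) in young and from 67.0 to 128 CPM (median 94.7) in nephritic mice. Of the nephritic mice 5 exceeded every young mouse, and the log2 difference at matched times was 0.24 ± 0.04 (SE; edgeR adjusted p = 3.86e-07).
Pkm, whose muscle and embryonic splice forms are counted together under 1 symbol, ran from 336 to 508 CPM (median 424.0) in young and from 292 to 559 CPM (median 372) in nephritic mice. Nephritic mice lay on both sides, 7 below and 2 above all young ones, and the log2 difference was -0.18 ± 0.05 (SE; edgeR adjusted p = 0.00188).
The other 3 stayed close. Hk1 differed by -0.06 ± 0.04, Ldha by -0.04 ± 0.04 and Pfkfb3 by 0.12 ± 0.07 on the log2 scale (SE; edgeR adjusted p = 0.215, 0.355 and 0.115). Ldha ran from 419 to 661 CPM in young and from 441 to 629 CPM in nephritic mice, so the ranges overlapped almost fully. Pfkfb3 passed when any 1 of 6 mice was left out (CR3RL, ZT12RL, HIL5LL, RX7LU, RX8RU or RX10RU), with adjusted p from 0.0146 to 0.0496.

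The balance of the pathways in each mouse was taken as the mean log2 CPM of the 4 gluconeogenic members minus that of the 6 glycolytic members, as a description with no test. It was 3.97 ± 0.24 (SD, n = 30) in young mice, 2.86 ± 1.05 in nephritic mice (n = 27) and 2.96 ± 0.52 in remission mice (n = 8). In 20 of 27 nephritic and 7 of 8 remission mice it lay below the lowest young value of 3.61. Across the nephritic mice the gluconeogenic mean ran from 6.80 to 10.48 and the glycolytic mean from 6.14 to 7.001 on the log2 CPM scale. In young mice these means ran from 10.12 to 10.78 and from 5.95 to 6.75. Single members need not follow the mean: in nephritic mice the highest Hk2 level was 12.0 times the lowest, against 7.92 times for Fbp1 and 6.62 times for Pcx.

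**Figure D2:**
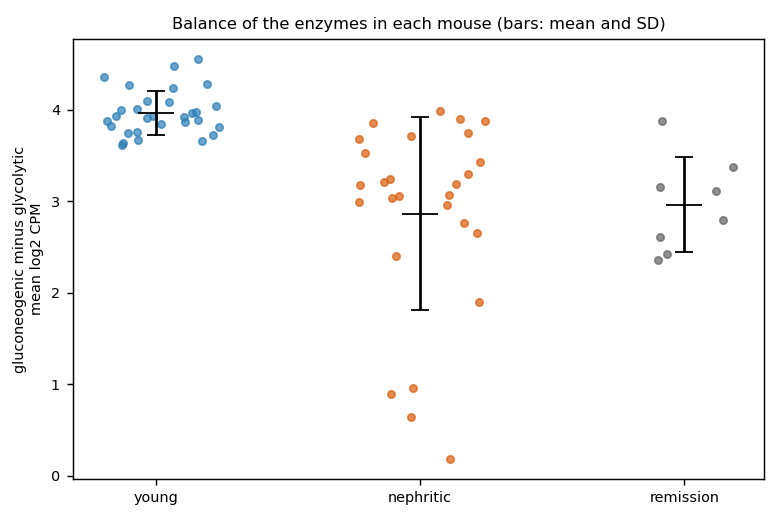
Gluconeogenic minus glycolytic mean log2 CPM (vertical axis) in each mouse, by group (horizontal axis). Points are mice, bars the mean and SD. Young mice lie between 3.61 and 4.55, nephritic mice between 0.19 and 3.98.

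Compared time point by time point, the differences were found mainly at ZT0, ZT4 and ZT12. At ZT12 all 4 gluconeogenic members were lower, with Hk1 and Pkm lower and Pfkp higher. At ZT0 Pck1, Fbp1 and Pcx were lower and Hk2, Pfkp and Pfkfb3 higher, and at ZT4 Pcx, Pkm and Ldha were lower. Pfkp alone was called at ZT8 and ZT16, and no member at ZT20. Over all genes, edgeR called 39.5% at ZT0, 30.3% at ZT4, 3.66% at ZT8, 50% at ZT12, 17.7% at ZT16 and 5.48% at ZT20, where 14 young and 13 nephritic mice stood behind ZT0 and ZT12 together and 3 or 4 per group behind each other time. In all, 18 of the 60 combinations of member and time passed, 15 when the set covariate was dropped and 13 without the libraries rich in adrenal or adipocyte markers.
All 4 gluconeogenic members had a lower fitted level in nephritic mice at each of the 6 times, from -0.24 (ZT20) to -1.78 (ZT12) on the log2 scale for Pck1. At ZT12 the 2 nephritic mice of set 1 had 227 and 236 CPM of Pck1, and the 4 of set 2 had 2130, 3413, 3466 and 5296 CPM. Set 1 holds mice of ZT0 and ZT12 only, so the contrast of these hours with the others also carries the larger differences of set 1. At ZT4 the 4 nephritic mice had 1469, 1631, 1874 and 1979 CPM of Pck1 and the 4 young mice 3314, 3322, 3382 and 3979 CPM. These groups did not overlap, yet with a spread shared over all 57 mice the difference of -1.05 ± 0.51 (SE) had an edgeR adjusted p of 0.113. At ZT20 the 3 nephritic mice had 3570, 3594 and 4237 CPM against 3588, 3982, 4151 and 6011 CPM in young mice, which overlapped. Fbp1 and Pcx in nephritic mice lay below every young mouse of the same hour at 5 of 6 times, all but ZT0. How often other genes separate in this way was not counted, here or for the other members.
Pfkp was higher in every nephritic mouse than in any young mouse of the same hour at ZT4, ZT8, ZT12 and ZT16. At ZT8, its low point, the 4 young mice had 58.6, 62.8, 63.5 and 65.3 CPM and the 4 nephritic mice 67.0, 74.5, 85.3 and 92.7 CPM, and the highest of these was mouse RX10RU, whose Arntl level went against its label. The log2 difference there was 0.35 ± 0.09 (SE; edgeR adjusted p = 0.0210).

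**Figure D3:**
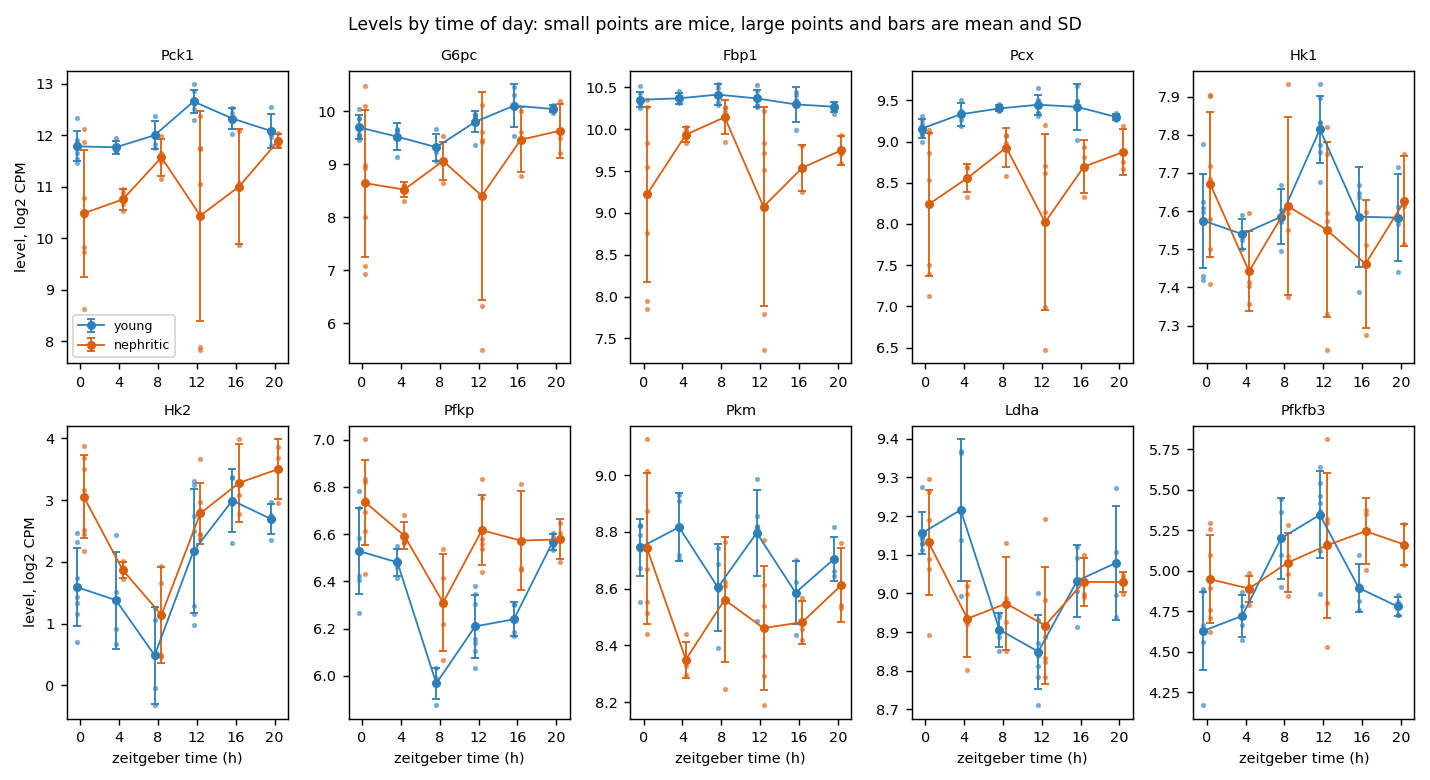
Level of each enzyme transcript (log2 CPM, vertical axis) by zeitgeber time (h, horizontal axis) in young (blue) and nephritic (orange) mice. Small points are mice, large points and bars the mean and SD. Pck1 peaks at ZT12 in young mice, where the nephritic mice spread most widely, and Hk2 is lowest at ZT8 in both groups.

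Each group was next tested for variation over the 6 times of day. In young kidneys 8 of 10 members varied, against 39.8% of 16521 genes. Only Fbp1 (edgeR adjusted p = 0.645) and Pkm (0.0785) did not pass. In nephritic kidneys only Hk2 passed (edgeR adjusted p = 0.00291), against 21.6% of 16872 genes, and none of the gluconeogenic members reached an unadjusted p of 0.05. The difference in rhythm between the groups was then tested itself, and 0 of 10 members passed in edgeR (4 had an unadjusted p under 0.05, DESeq2 called 2), where 6.27% of 17521 genes did. A rhythm called in young and not in nephritic mice is therefore not shown to differ for any member.
The young rhythms fell at different hours. Hk2 had the widest, with a cosine amplitude of 1.11 ± 0.19 on the log2 scale (SE) and its highest mean at ZT16. At ZT8 the young mice had 0.733, 0.903, 2.02 and 2.31 CPM of Hk2, and at ZT16 they had 4.86, 7.55, 10.2 and 10.3 CPM, with no overlap. In nephritic mice the amplitude was 1.12 ± 0.17, the low point again ZT8 (1.31, 1.34, 3.10 and 3.77 CPM) and the highest mean at ZT20 (7.64, 12.8 and 14.5 CPM).
Pck1 was highest at ZT12 in young mice, when the animals' active phase begins, with 5007 to 8191 CPM (median 6516) against 3314 to 3979 CPM at ZT4, its low point, and an amplitude of 0.43 ± 0.07 (SE; edgeR adjusted p = 0.000132). G6pc followed at ZT16 with an amplitude of 0.38 ± 0.07 (adjusted p = 0.00195). Pcx rose least of the 3, with an amplitude of 0.13 ± 0.03 and a peak at ZT12 (adjusted p = 0.0245), and did not pass in set 2 alone (0.275) or without either of 2 set 1 mice, CR3RL (0.0521) and CR6RU (0.0528).
Of the other glycolytic members, Pfkfb3 (amplitude 0.35 ± 0.05) and Hk1 (0.10 ± 0.03) were highest at ZT12, Pfkp (0.24 ± 0.03) at ZT20 and Ldha (0.16 ± 0.03) at ZT4 (SE; edgeR adjusted p = 1.52e-05, 0.00713, 2.23e-07 and 0.000493). Ldha was thus highest at ZT4 and lowest at ZT12, and Pck1 highest at ZT12 and lowest at ZT4, while Hk1 and Pfkfb3 shared the ZT12 peak of Pck1. Mean Pck1 was nearly as low at ZT0 (3598 CPM) as at ZT4 (3499 CPM). In nephritic mice the amplitude of Pck1 (0.17 ± 0.32) was smaller than its error. That of G6pc (0.46 ± 0.30) was no smaller than in young mice but had a wide error, and neither gene passed the test over time.
Several young libraries of ZT12 and ZT16 were rich in adipocyte or adrenal markers. All 6 adipocyte and all 4 adrenal markers passed the test over time in both groups, beside 39.8% of all genes in young and 21.6% in nephritic mice. In nephritic mice the adrenal sum was 791 CPM in RX10LU of ZT0 and at most 9.66 CPM in every other library. Across young mice, within time point and set, Hk2 rose with the adipocyte marker sum (Pearson r = 0.77, Spearman rho = 0.75, n = 30, permutation p = 6e-05 and 0.00019, adjusted over the 10 members 0.0006 and 0.0019), and r was 0.74 without the 2 mice farthest from the median Hk2 level and 0.78 in set 2 alone. No other member passed there, and none in nephritic mice (Hk2 r = 0.50, n = 27, permutation p = 0.0296, adjusted 0.160, Spearman rho = 0.49). Without the libraries rich in either tissue the rhythm of Hk2 still passed in young (edgeR adjusted p = 0.0116) and nephritic mice (0.00544), that of Hk1 in young mice did not (0.166), and the level difference of Hk2 was 0.93 (7.72e-05).

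Markers of the proximal tubule moved with the gluconeogenic enzymes. All 10 of 10 proximal tubule markers were lower in nephritic kidneys, with a median log2 difference of -0.73 beside -0.76 for the 4 gluconeogenic members and -0.03 for all genes tested. Among them were the lactate transporter Slc5a12 (-0.90 ± 0.11), the endocytic receptor Cubn (-0.86 ± 0.12) and the glucose transporter Slc5a2 (-0.75 ± 0.12, SE). Their summed level ran from 15312 to 24046 CPM in young, 2981 to 18617 CPM in nephritic and 11486 to 18157 CPM in remission mice, and no marker of the list was at 0 in any library. In bulk tissue, fewer proximal tubule cells and less RNA of these genes per cell cannot be told apart.
Across the 27 nephritic mice, with levels centred within time point and set, Fbp1 followed the proximal tubule sum with r = 0.99 and rho = 0.98, G6pc with 0.97 and 0.96, Pcx with 0.97 and 0.96, and Pck1 with 0.84 and 0.82. The permutation p-values of r ran from 1e-05, the smallest that 100000 shuffles can give, to 0.00035, or 0.00015 to 0.00131 adjusted over 30 relations of 10 members with 3 marker sums. Without the 2 mice farthest from the median level, r was 0.98, 0.96, 0.96 and 0.74, and in the 22 mice of set 2 alone 0.98, 0.97, 0.96 and 0.91. Both sides of each relation come from the same library and share its scaling. Pfkp fell with the sum (r = -0.55, rho = -0.57, n = 27, adjusted permutation p = 0.0490), but not past the threshold in set 2 alone (r = -0.52, adjusted permutation p = 0.0781).
In the 30 young mice r with the proximal tubule sum was 0.72 for Fbp1, 0.55 for G6pc, 0.53 for Pcx and 0.40 for Pck1 (rho 0.57, 0.43, 0.33 and 0.32). Of these Fbp1 passed by r (adjusted permutation p = 0.0388) and not by rho (0.106). The glycolytic Pkm did likewise (r = 0.48, rho = 0.49, adjusted permutation p = 0.0388 and 0.106). None of the 30 young relations passed in set 2 alone. Whether the relations differ between the groups was not tested.
The 5 injury markers (Havcr1, Lcn2, Krt20, Vcam1 and Timp1) were all higher in nephritic mice, with sums of 34.5 to 145 CPM in young and 44.1 to 1795 CPM in nephritic mice, Timp1 by 5.19 ± 0.41, Lcn2 by 4.95 ± 0.43 and Vcam1 by 3.05 ± 0.24 on the log2 scale (SE). The gluconeogenic members fell with rising injury sum, with r of -0.90 for Pcx, -0.87 for G6pc, -0.83 for Pck1 and -0.82 for Fbp1 (n = 27, adjusted permutation p 0.00015 to 0.00131). Pfkp rose with it (r = 0.64, rho = 0.65, adjusted permutation p = 0.0113) and Pkm fell (r = -0.53, rho = -0.55, adjusted permutation p = 0.0499, n = 27).
All 10 leukocyte markers were higher in nephritic mice, with a median log2 difference of 2.62 and sums of 102 to 215 CPM in young and 227 to 1661 CPM in nephritic mice. The 3 with the smallest adjusted p were Itgam (4.46 ± 0.19), Lyz2 (2.61 ± 0.14) and Laptm5 (2.26 ± 0.12). Of the members only Hk2 passed with the leukocyte sum (r = 0.62, rho = 0.60, n = 27, adjusted permutation p = 0.0335), and the 4 gluconeogenic r ran from -0.31 to -0.18. In all, 12 of 30 relations passed, 12 with both r and rho. Over all genes tested, 33.9% were lower and 28.1% higher, and the shares called lower among distal nephron and endothelial markers lay near that. Of 7 distal nephron markers 3 were lower and 1 higher (Calb1 -1.06 ± 0.16, Slc4a1 -0.39 ± 0.13 and Slc12a3 -0.35 ± 0.11). Of 5 endothelial markers 2 were lower (Kdr -0.65 ± 0.13 and Emcn -0.23 ± 0.09), as were 2 of 4 adrenal markers (Cyp11b1 -4.76 ± 1.73 and Star -1.40 ± 0.63). None of 6 adipocyte markers passed, nor did the 1 erythrocyte marker tested. The part of these markers in the level differences was not tested. Adrenal sums were low in most libraries, with medians of 6.46 CPM in young and 5.61 CPM in nephritic mice. The highest single libraries had 1280 CPM in young and 791 CPM in nephritic mice, and Cyp11b1 had no counts in 11 young and 12 nephritic libraries.

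**Figure D4:**
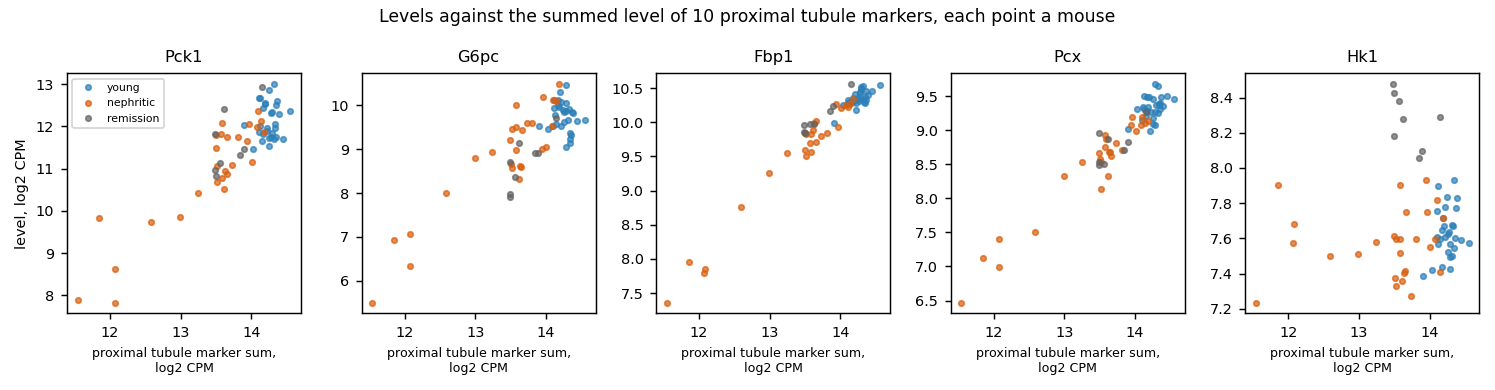
Level of the 4 gluconeogenic enzymes and Hk1 (log2 CPM, vertical axis) against the summed level of 10 proximal tubule markers (log2 CPM, horizontal axis), each point a mouse, coloured by group. The nephritic mice line up along the proximal tubule sum for the gluconeogenic enzymes (r 0.84 to 0.99, centred within time and set) and not for Hk1 (r = 0.04). Hk1 is the only glycolytic member plotted, and r of the others ran from -0.55 (Pfkp) to 0.33 (Pkm).

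Whether mice low in gluconeogenic enzymes were high in glycolytic ones was asked within each group, over the 24 pairs of a gluconeogenic with a glycolytic member. None of 24 pairs passed in nephritic mice after adjustment, and none in young mice (4 and 1 had an unadjusted permutation p under 0.05). The 4 in nephritic mice all involved Pfkp, with r of -0.53 for Pcx and for G6pc and -0.50 for Pck1 and for Fbp1 (n = 27, permutation p 0.0227 to 0.0393, each 0.236 adjusted over the 24 pairs, rho -0.51 to -0.60). Over the 24 pairs r ran from -0.53 to 0.42 in nephritic mice (median -0.17) and from -0.48 to 0.30 in young mice (median 0.02).
As a description over the 57 young and nephritic mice, the gene whose log2 CPM was most like that of Fbp1 was Slc6a20b (Pearson r 0.98), of Pcx Fmo1 (0.98), of Pck1 Kcnj15 (0.96) and of G6pc 4931406C07Rik (0.93). The nearest gene lay farther off for the glycolytic members, at r 0.87 for Pfkp (Hn1l), 0.85 for Hk2 (Cib2), 0.78 for Pkm (Kcnj1), 0.77 for Ldha (Ttc22), 0.73 for Hk1 (Stk39) and 0.68 for Pfkfb3 (Rnf43).

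The remission mice were compared at ZT0 and ZT12 with 13 nephritic and 14 young mice of these times. None of the gluconeogenic members differed from nephritic mice by the test, with 0 at an unadjusted p under 0.05 as well, whereas Hk1 was 1.60-fold, Pkm 1.48-fold and Pfkp 1.19-fold higher in remission. That makes 3 of 10 members, against 35.8% of 16344 genes (16.8% higher, 19% lower). Against young mice all 4 gluconeogenic members were lower and Hk1, Pfkp, Pkm and Pfkfb3 higher, 8 of 10 members, against 53% of 15982 genes (26.2% higher, 26.8% lower).
Hk1, the hexokinase bound to mitochondria in most tissues, had 267, 274, 333 and 356 CPM in remission mice at ZT0 and 290, 310, 313 and 344 CPM at ZT12. All 8 values lay above the highest of the 30 young (244 CPM) and 27 nephritic mice (244 CPM). How often other genes separate in this way was not counted. These CPM values are not adjusted for the batch described below, in which Hk1 read higher in repeat libraries of young and nephritic mice as well. The log2 difference was 0.68 ± 0.09 from nephritic and 0.60 ± 0.06 from young mice (SE; edgeR adjusted p = 1.21e-05 and 6.11e-08). Pkm ran from 477 to 678 CPM (median 565) in remission mice, 4 of 8 above every nephritic mouse and 6 of 8 above every young mouse, with log2 differences of 0.57 ± 0.11 and 0.40 ± 0.07 (adjusted p = 0.000569 and 5.34e-05). Pfkp ran from 89.9 to 151 CPM, overlapped the nephritic mice, and differed by 0.26 ± 0.09 and 0.54 ± 0.08 (adjusted p = 0.0304 and 5.89e-06).
Pck1 in remission mice had 1998, 2231, 2556 and 2833 CPM at ZT0 and 1825, 3586, 5477 and 7786 CPM at ZT12, where the lowest was mouse s9. The lowest lay well above the lowest nephritic mice, the highest above every nephritic mouse, and 4 of 8 below every young mouse. The log2 difference was 0.64 ± 0.50 from nephritic and -0.52 ± 0.17 from young mice (SE; edgeR adjusted p = 0.327 and 0.0129). In this fit G6pc was the only gluconeogenic member whose level was lower in remission than in nephritic mice (-0.34 ± 0.51, adjusted p = 0.631). With the batch covariate described next, its log2 difference was 0.41, in the other direction. Of the 4, G6pc lay farthest below young mice (-0.95 ± 0.16, adjusted p = 4.55e-05). Fbp1 differed from nephritic mice by 0.65 ± 0.34 and Pcx by 0.43 ± 0.31 (adjusted p = 0.136 and 0.276), and from young mice by -0.26 ± 0.07 and -0.51 ± 0.07 (0.00386 and 3.64e-06).
No label or method names a sequencing run. The file headers number the remission libraries and the repeat libraries of 4 young and nephritic mice in 1 series of names, apart from all others, and these were taken as a later batch, an inference that the sources used here do not state. Between the original and repeat libraries of these mice Hk1 read 0.15 to 0.31 log2 units higher in the repeat in all 4, and Pkm 0.18 to 0.23 higher in the 3 whose repeat lay nearest its own original. With that batch as a covariate, carried by these 4 mice whose 2 libraries entered as independent, Hk1 stayed higher in remission than in nephritic (0.45, edgeR adjusted p = 0.00634) and young mice (0.37, 0.0300), Pkm stayed higher than in nephritic mice (0.48, 0.0107), and none of the gluconeogenic differences from young mice passed (log2 -0.18 to -0.38, adjusted p 0.509 to 0.876). Of the other glycolytic differences from young mice, that of Pfkp still passed and those of Pkm and Pfkfb3 did not. When the repeat that lay nearest another mouse was left out and 3 mice carried the covariate, Hk1 still passed against nephritic mice (0.42, edgeR adjusted p = 0.0305), but Hk1 against young (0.34, 0.100) and Pkm against nephritic mice (0.43, 0.0507) did not. Without mouse s9, or without s3 or s8, Pfkp no longer passed against nephritic mice (adjusted p 0.0640 to 0.0877), and Pfkfb3 did not pass against young mice without any 1 of CR3LL, s3, s8, s12 or s14 (0.0515 to 0.0900).
In remission mice the proximal tubule sum ran from 11486 to 18157 CPM (median 12342), the injury sum from 121 to 257 CPM and the leukocyte sum from 249 to 891 CPM. Over all genes, 16.8% were higher than in nephritic mice, and 26.2% were higher and 26.8% lower than in young mice. Of the 10 proximal tubule markers 2 were higher than in nephritic mice, near that share, and 8 were lower than in young mice. Of 5 endothelial markers 4 were higher than in nephritic and 5 higher than in young mice. Beside the higher Hk1, Pkm and Pfkp, 3 of 7 distal nephron markers were higher than in nephritic mice (Slc4a1 by 1.07, Slc12a1 by 0.87 and Umod by 0.87 on the log2 scale), as was the 1 erythrocyte marker tested, Alas2 (3.61, edgeR adjusted p = 0.00154). Their part in these differences was not tested.
Between ZT0 and ZT12 within remission, 0 genes of 14451 passed in edgeR (0%, 1449 at an unadjusted p under 0.05, 24 by DESeq2). Pck1 (-0.95 ± 0.35 for ZT0 minus ZT12), Hk2 (-0.88 ± 0.32) and Pfkfb3 (-0.65 ± 0.16) had an unadjusted p under 0.05 (SE, log2 scale), and without mouse s9 Pck1 passed (-1.21, edgeR adjusted p = 0.0479).

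**Figure D5:**
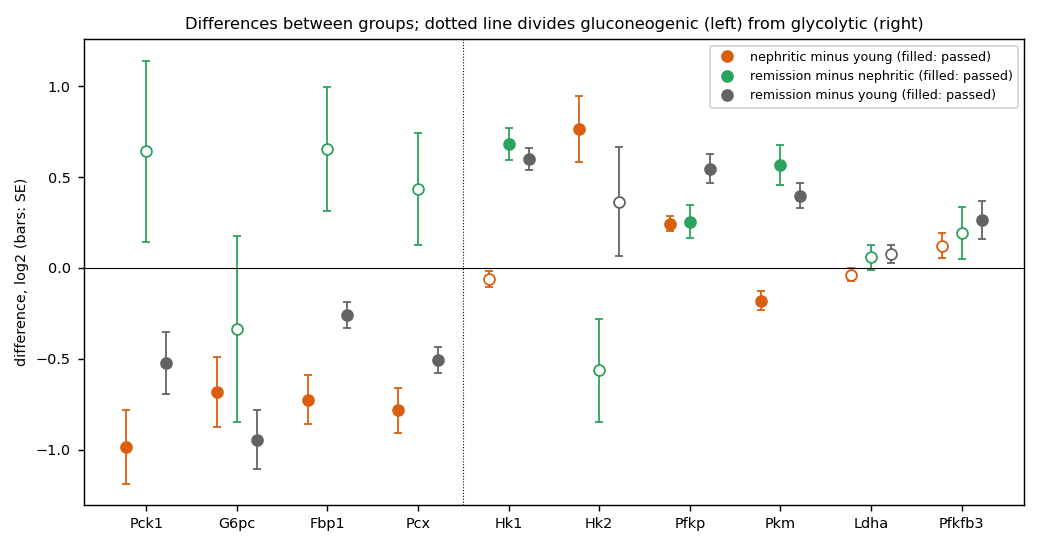
Log2 differences between groups (vertical axis, bars are SE) for each enzyme (horizontal axis): nephritic minus young, remission minus nephritic and remission minus young. Filled points passed the test. The 4 gluconeogenic enzymes lie below 0 in both comparisons with young mice, and Hk1 lies at 0.60 to 0.68 in both comparisons of remission. These fits carry no batch covariate.

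The rest of the pathway was described by 4 further lists, whose counts stand beside 28.1% of all genes higher and 33.9% lower in nephritic mice. Of 7 other gluconeogenic genes, 4 were lower and 1 higher in nephritic mice, with a median log2 difference of -0.28: cytosolic malate dehydrogenase Mdh1 was lower (-0.57 ± 0.08), mitochondrial Pck2 higher (0.33 ± 0.06) and the barely expressed G6pc2 lower (-0.82 ± 0.15, from 0.387 ± 0.129 to 0.226 ± 0.0959 CPM, mean and SD). Of 22 other glycolytic genes tested, 13 were lower and 4 higher, with a median of -0.23. Among them the leukocyte hexokinase Hk3 was higher (2.18 ± 0.16) and the muscle phosphofructokinase Pfkm (-0.56 ± 0.07) and Pgam1 (-0.41 ± 0.06) were lower.
The liver phosphofructokinase Pfkl, named after its values were seen, was also lower (-0.23 ± 0.04, edgeR adjusted p = 1.28e-05), so that of the 3 phosphofructokinase genes Pfkp alone was higher in nephritic kidneys. Of 15 regulators of gluconeogenic genes, 12 were lower and 1 higher, with a median of -0.37. The insulin receptor Insr (-0.40 ± 0.05) was lower, and Cebpb, a factor of the acute phase response, was higher (0.68 ± 0.09). Of 12 regulators and partners of glycolysis, 4 were higher and 3 lower, with a median of 0.09, shares near those of all genes. The lactate exporter Slc16a3 (1.502 ± 0.14) and Myc (1.44 ± 0.18) were higher and Mpc2, a subunit of the mitochondrial pyruvate carrier, was lower (-0.35 ± 0.06). Errors are SE on the log2 scale, and the median of all 17521 genes was -0.03.
Against nephritic mice, remission mice had 5 of 22 other glycolytic genes higher and 6 lower, 3 of 15 gluconeogenic regulators higher and 2 lower, and 0 of 7 other gluconeogenic genes called, beside 16.8% of all genes higher and 19% lower. Of the genes named here, Pfkl (0.63), Pfkm (0.42) and Pgam1 (0.47) were higher in remission than in nephritic mice and Myc was lower (-1.57). Their edgeR adjusted p were 5.17e-05, 0.0378, 0.00471 and 0.00439.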

How the data were processed

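Per the labels and the study's methods, the authors extracted RNA from perfused kidneys, sequenced oligo-dT libraries, aligned the reads to the mouse genome and deposited counts of uniquely aligned reads per gene symbol, whole numbers with no normalization. The submitters' processing notes name HISAT and mm10, and the study's methods name a Burrows-Wheeler alignment. Each of 69 libraries lists 24538 symbols, of which 15 with empty cells were left out. The 4 repeat libraries entered only alternatives. Diagnosis and time came from the labels, while set membership and the batch of the remission and repeat libraries were inferred from sample and header names.

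Analyses used R 4.3.3 with edgeR 4.0.16 (TMM, quasi-likelihood F test), and limma 3.58.1 and DESeq2 1.42.0 as alternatives. Genes whose counts, summed over a fit's libraries, reached 100 were tested and p-values adjusted over all of them by the Benjamini-Hochberg method, with a threshold of 0.05. Log2 CPM used a prior count of 2. SE is the log2 difference divided by the square root of F. Cosine amplitudes came from a 24 h cosine and sine with the set on log2 CPM. Relations across mice used values centred within time point and set and 100000 two-sided shuffles within them. Levels per kb used the union of exons in GENCODE vM21. Fits and relations were tested on simulated data first. The 65 original libraries are each a separate mouse, the 4 repeats are second libraries of mice among them, and total counts per original library ran from 13311278 to 48075977.

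All 10 members are named. Of each other list the genes named are the up to 3 with the smallest adjusted p between nephritic and young mice. One gene that this rule names is not reported here. The members, lists and tests were chosen with earlier results of these data known. The libraries rich in adrenal or adipocyte markers, the relations to the adipocyte sum, set 1 alone and the bridge of 3 mice were chosen after seeing the data. Microarrays and C57BL/6 mice of the study were not analysed here.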

Additional observations from a re-analysis of the deposited data

Results flagged for a closer look

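Within each group and time of 4 to 7 mice, 9 of 120 sets of values of a member held 1 mouse whose log2 CPM stood apart from the others by Dixon's 95% limit, or 7.50% where chance gives about 1 in 20. At young ZT4, mouse ZT40 had the highest Pck1 (3979 CPM, others 3314 to 3382) and the lowest G6pc (566 CPM, others 785 to 817). At nephritic ZT4, mouse RX1OLL had the lowest G6pc (318 CPM, others 383 to 392) and the highest Pfkp (103 CPM, others 94.6 to 94.7). Mouse RX10RU, whose Arntl level went against its label, had the lowest Fbp1 at nephritic ZT8 (920 CPM, others 1185 to 1228). At young ZT12, mouse ZT12RU had the lowest G6pc (662 CPM, others 884 to 986) and CR3RL the lowest Pkm (359 CPM, others 445 to 508). Mouse ZT16RU, 1 of the libraries rich in adrenal and adipocyte markers, had the lowest Hk1 at young ZT16 (168 CPM, others 199 to 203), and ZT00 the highest Ldha at young ZT0 (619 CPM, others 553 to 569).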

How the results depend on the processing

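Of 550 values of single members under alternatives that leave out no single mouse at a time, 522 kept their side of the threshold. Of the rest, 21 lost a call and 7 gained one, and 0 values with a call changed direction. A change of direction where neither fit passed was counted as kept, and the tests of rhythm have no direction. Under DESeq2, 2 members varied over time in nephritic mice (Hk2 and Ldha) where edgeR called 1, and 2 (Pkm and Ldha) differed in rhythm where edgeR called 0, and the cause was not tested. With the inferred batch bridged by 4 mice, 2 members (Hk1 and Pfkp) differed between remission and young mice instead of 8, and bridged by 3 mice 1 (Pfkp), while remission and nephritic mice then differed in 1 member (Hk1) instead of 3. Without mouse s9, 1 member (Pck1) differed between ZT0 and ZT12 in remission, where 0 did with it. Leaving out 1 mouse at a time, the members called ran from 7 to 8 for nephritic against young, 7 to 8 for young rhythm, 1 to 1 for nephritic rhythm, 0 to 1 for the difference in rhythm (Pfkfb3, adjusted p = 0.0419 without RX9RL), 2 to 4 for remission against nephritic (Hk2 gained without s14, 0.0445), 7 to 8 for remission against young and 0 to 1 for ZT0 against ZT12 in remission. Over all genes, the count differing in rhythm was 1099, against 2186 by DESeq2, 1715 in set 2 alone, 121 with a cosine and sine, 693 with the repeats in place of originals, 417 without the libraries rich in adrenal or adipocyte markers and 638 to 1771 with 1 mouse left out. The count varying in nephritic mice was 3646, against 5646 by DESeq2, 362 with a cosine and sine, 1994 without the set covariate and 2392 without those libraries, and in young mice 6583 against 3659 without them. Remission differed from nephritic mice in 5850 genes and in 3507 to 3882 when bridged, and from young mice in 8468 and in 1589 to 2225 when bridged.

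No paired analysis was possible because the labels give no replicate numbers that link mice of different groups. Hk2, at 18 to 757 counts per library, has the least depth behind it. The time points with 3 or 4 mice per group carry wide errors, and the bridged fits rest on 4 mice or fewer.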
